A study of Mus musculus with 56 samples.

Results

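The genes described here are 9 regulators of skeletal muscle formation and of the muscle stem cell, chosen by name: the myogenic factors Myod1, Myog and Myf6, the satellite cell factor Pax7, the MEF2 factors Mef2a, Mef2c and Mef2d, and the homeodomain factor Six4 with its coactivator Eya1. They are 9 of the 15539 genes in the deposited count table, and all 9 passed the filter on low counts that left 14321 genes for testing. The table holds RNA sequencing read counts from the gastrocnemius, a calf muscle, of 56 C57Bl/6 mice fed chow. The mice form 8 groups of 7: male and female, control and labelled HuR knockout, each with a locked or a running wheel.

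HuR, encoded by Elavl1, is an RNA-binding protein. Both genotypes carried floxed Elavl1 alleles according to the study's methods, and the labelled knockouts also carried Cre recombinase driven by the Mlc1f promoter, which is active in differentiated muscle fibres. The controls were floxed littermates. The labels give wheel access from 10 to 20 weeks of age, a wheel period of 10 weeks and an age of 5 months. Male and female control mice with locked wheels, male and female labelled knockout mice with locked wheels, and the same 4 kinds of mice with running wheels are therefore the groups compared. The whole muscle was homogenised, so a level is an average over fibres, satellite cells and all other cells of the tissue, and fewer cells of a type cannot be told apart from less RNA per cell.

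Myod1, Myog and Myf6 are basic helix-loop-helix transcription factors that bind E-box sequences together with E proteins. Myod1 commits cells to the muscle lineage, Myog drives their terminal differentiation and also rises in denervated fibres, and Myf6 (also called MRF4) is the member of the family most expressed in adult fibres. Pax7 marks satellite cells, the stem cells that lie beneath the basal lamina of each fibre. MEF2 proteins act with the myogenic factors at muscle promoters and are held in check by class II histone deacetylases such as Hdac4. Six4 and its relatives bind MEF3 sites, with EYA proteins as coactivators, and act upstream of myogenic genes and in fast fibre gene programmes. HuR is known to bind and stabilise the Myod1 and Myog messages in cultured muscle cells.

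In GRCm38 coordinates with GENCODE M21 annotation, all 9 are protein-coding genes. Myod1 lies at chr7:46376474-46379099 on the plus strand, Myog at chr1:134289989-134292548 on the plus strand and Myf6 at chr10:107492853-107494737 on the minus strand. Pax7 lies at chr4:139737062-139833528 on the minus strand. Mef2a lies at chr7:67231163-67372858 on the minus strand, Mef2c at chr13:83504034-83667080 on the plus strand and Mef2d at chr3:88142372-88172086 on the plus strand. Six4 lies at chr12:73099609-73113456 and Eya1 at chr1:14168954-14310235, both on the minus strand. Exons of Mef2a overlap Lysmd4 on the opposite strand (median count of Lysmd4 86) and exons of Mef2d overlap 1700113A16Rik (median count 4). Whether the counting used strand is not given in the sources used here, so reads in those shared exons cannot be told apart.

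RefSeq promoter sequences (GRCm38.p6) matched 6 of the 9 genes, and the 250 bases before the start of Myog, Mef2a and Mef2d are shown, because Myog was higher in females with locked wheels while Mef2a and Mef2d were lower. Capitals mark E-boxes (CANNTG, which reads the same on both strands) and MEF3 sites (TCAGGTT, searched on both strands). The MEF2 site was also searched on both strands by the consensus YTAWWWWTAR, where Y is C or T, W is A or T and R is A or G.
Myog, chr1:134289754-134290003, plus strand: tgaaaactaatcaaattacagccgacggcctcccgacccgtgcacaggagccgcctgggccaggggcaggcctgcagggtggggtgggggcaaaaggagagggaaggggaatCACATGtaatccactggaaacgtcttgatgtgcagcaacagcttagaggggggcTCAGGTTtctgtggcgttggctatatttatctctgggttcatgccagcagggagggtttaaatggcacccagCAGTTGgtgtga
Mef2a, chr7:67372859-67373108, minus strand: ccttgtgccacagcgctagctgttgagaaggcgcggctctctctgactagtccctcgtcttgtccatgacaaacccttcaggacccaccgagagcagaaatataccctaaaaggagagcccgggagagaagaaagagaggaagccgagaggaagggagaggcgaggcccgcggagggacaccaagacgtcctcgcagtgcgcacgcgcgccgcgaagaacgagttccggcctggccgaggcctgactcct
Mef2d, chr3:88142122-88142371, plus strand: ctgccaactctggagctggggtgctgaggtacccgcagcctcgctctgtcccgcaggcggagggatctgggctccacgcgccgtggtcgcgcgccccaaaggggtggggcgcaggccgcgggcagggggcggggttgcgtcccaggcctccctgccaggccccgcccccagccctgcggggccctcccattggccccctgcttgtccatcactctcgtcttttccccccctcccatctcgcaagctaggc
The Myog window held 2 E-boxes, CACATG starting 138 bases and CAGTTG starting 12 bases before the transcript start, and a MEF3 site starting 84 bases before it, with no overlap among them. The stretch CTATATTTAT in the Myog window differs from the MEF2 consensus in its last base and was not counted. The Mef2a, Mef2d and Pax7 windows held none of the 3 motifs. The first of the 3 Mef2c windows held 2 E-boxes and a MEF3 site, and the third held 1 E-box. Of the 2 Six4 windows 1 held a MEF3 site starting 97 bases before the start. Both Mef2c and Six4 were lower in locked control females. Any relation between these motifs and the differences was not tested. Of all 32851 promoter windows of this length, 66.22% held an E-box, 3.49% a MEF3 site and 2.92% the MEF2 consensus. A match describes letters and not a bound site.

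Library totals ranged from 6639782 to 21633091 counts, with a median of 12380363. Elavl1, the targeted gene, was not called lower in any group labelled as knockout. Its group means lay between 44.7 and 61.1 CPM (read counts per unit of library total, after trimmed mean of M-values scaling), and the labelled knockouts differed from controls by log2 fold changes of -0.05 in locked males, 0.11 in locked females, 0.44 in running males (higher in the labelled knockouts, limma adjusted p = 0.0242) and 0.01 in running females. Running control males had the widest spread of the 8 groups, from 27.8 to 60.9 CPM (SD 13.8). Running labelled knockout males ran from 53.2 to 69.8 CPM (SD 6.34). The exons deleted by Cre are not given in the sources used here and the labels name a 3′ library kit, so reads from outside the deleted part would check nothing. Exons of Elavl1 also overlap Ccl25 on the opposite strand. The study reports lower Elavl1 mRNA by quantitative PCR in the gastrocnemius of its knockouts. Whether those animals were the mice sequenced here is not stated. Within the counts, every genotype direction below rests on the labels alone. In 11 of the 56 libraries the mean level of 14 liver markers was more than 2 log2 units above the median library, and the text says where a call among the 9 genes changes without them. They were locked control females 12, 15 and 16, and locked labelled knockout males 8, 11 and 23. The others were running labelled knockout males 6, 21 and 22, locked control male 19 and locked labelled knockout female 19. Leaving them out makes these groups smaller, and whether a lost call came from that was not tested. Locked labelled knockout female 34 stood far below its group for Myf6 and Six4, and the counts it changes are given without it as well.

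The 9 genes covered a wide range of levels. Mef2c had the highest median CPM over the 56 mice, at 1009, followed by Mef2a at 147, Mef2d at 129, Six4 at 44.9, Myf6 at 37.6, Eya1 at 25.95, Myod1 at 20.5, Myog at 9.35 and Pax7 at 3.59. Per kilobase of exon the order of the median levels was Mef2c (64.2 CPM per kb), Myf6 (29.8), Mef2d (21.56), Myod1 (11.02), Mef2a (9.98), Myog (6.25), Six4 (4.14), Eya1 (3.32) and Pax7 (0.612). The study's methods describe a total RNA library and the labels a 3′ library; the order per length applies to the first and the order of plain CPM to the second. In both orders Mef2c was highest and Pax7 lowest. Pax7 rested on 18 to 94 counts per mouse and Myog on 38 to 259, the fewest of the 9 genes.

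The spread over the 56 mice followed the level in part. The coefficient of variation of the CPM was 41.1% for Myog and 30.5% for Pax7, against 12.6% for Mef2a, 13.3% for Mef2d and 13.4% for Mef2c. Myf6, Myod1, Eya1 and Six4 lay between, at 25.9%, 22.3%, 19.6% and 15.5%. The plot of single mice shows these levels for every gene and group.

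**Figure D1:**
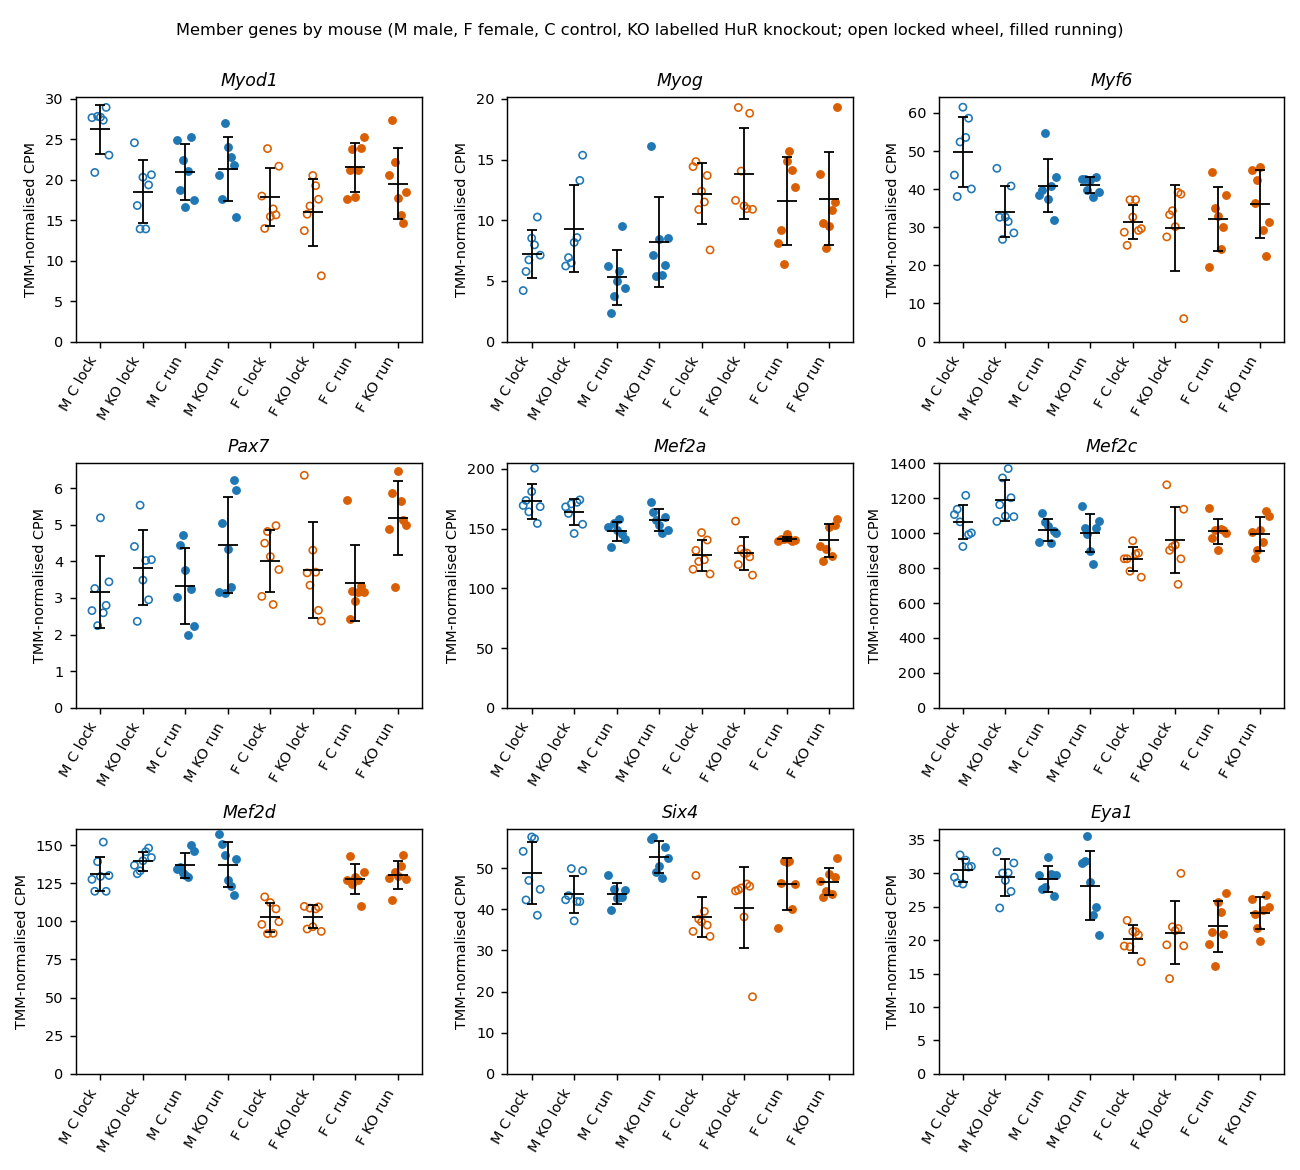
Level of each of the 9 genes in each mouse, as CPM on axes that start at 0, in the 8 groups (M male, F female, C control, KO labelled HuR knockout, open circles locked wheel, filled circles running wheel). Lines and bars are the mean ± SD of 7 mice; Myog is higher in the female groups, Eya1 lower in them, and 1 locked female labelled knockout lies far below its group for Myf6 (6.02 CPM) and Six4 (18.7 CPM).

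The first comparison asked whether the sexes differed, in mice of the same genotype and wheel. With locked wheels, most of the 9 genes did. In locked control mice 8 of 9 passed the test (limma adjusted p of 0.05 or less), where 21.5% of all 14321 genes did: Myog was higher in females, as 10.3% of all genes were, and Myod1, Myf6, Mef2a, Mef2c, Mef2d, Six4 and Eya1 were lower, as 11.2% were. In locked labelled knockouts 5 of 9 passed, against 19.3% of all genes: Myog higher (9.08% of all genes) and Mef2a, Mef2c, Mef2d and Eya1 lower (10.2%). With running wheels the counts were 2 of 9 in controls (7.65% of all genes), namely Myog higher (3.09%) and Eya1 lower (4.57%), and 0 of 9 in labelled knockouts (5.57% of all genes, 3 of the 9 at an unadjusted p under 0.05). The median log2 fold change of the 9 genes was -0.36 in locked controls and -0.32 in locked labelled knockouts, beside 0.01 and -0.02 for all genes tested, and -0.01 and -0.15 in running controls and labelled knockouts, beside -0.003 and 0.01.

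Myog was the member that was higher in females. In locked controls it measured 4.202, 7.12 and 10.3 CPM (lowest, median and highest of 7 mice) in males and 7.55, 12.4 and 14.8 CPM in females. The groups overlapped, and all 7 females lay above the male median. The log2 fold change was 0.81 (SE 0.25, adjusted p = 0.0124; exact permutation p = 0.0035, two-sided, 7 against 7 mice). Without the libraries high in liver markers the adjusted p was 0.107.

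In running controls Myog differed most between the sexes. Males measured 2.33, 5.03 and 9.52 CPM and females 6.36, 12.7 and 15.7 CPM, a log2 fold change of 1.22 (SE 0.25, adjusted p = 0.000664; exact permutation p = 0.00408). All 7 females again lay above the male median, with the ranges overlapping between 6.36 and 9.52 CPM.

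In labelled knockouts the Myog difference was 0.63 with locked wheels (SE 0.22, adjusted p = 0.032; exact permutation p = 0.0256) and 0.55 with running wheels (SE 0.23, adjusted p = 0.16). The locked call was lost by the edgeR quasi-likelihood test and by DESeq2, without the libraries high in liver markers, and when any of 6 single mice was left out, with adjusted p from 0.0126 to 0.093 over the mice left out. In both strata all 7 females lay above the male median. The sex difference of Myog averaged over the 4 strata was 0.80 (SE 0.12, adjusted p = 1.58e-07), and it passed the test under every alternative run. Whether it differed between strata was tested by the interactions, none of which was called for Myog.

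The other myogenic factors were lower in locked control females. Myod1 measured 20.9, 27.6 and 28.9 CPM in males and 14.0, 16.4 and 23.8 CPM in females, a log2 fold change of -0.55 (SE 0.15, adjusted p = 0.00542; exact permutation p = 0.00291). All 7 females lay below the male median, and the ranges overlapped. Myf6 measured 38.1, 52.4 and 61.5 CPM in males and 25.3, 29.6 and 37.2 CPM in females, with no overlap and a log2 fold change of -0.64 (SE 0.21, adjusted p = 0.0241; exact permutation p = 0.000583, the smallest that 7 against 7 mice can give). The Myf6 call was lost without the libraries high in liver markers and when locked control female 15 or male 19 was left out, with adjusted p up to 0.0541 over the mice left out. In the other 3 strata neither gene passed, with log2 fold changes of -0.26 to 0.05 for Myod1 and -0.39 to -0.24 for Myf6.

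Pax7, the satellite cell marker, was not called in any comparison. Its sex difference was 0.33 in locked controls (95% confidence interval -0.14 to 0.79), -0.03 in locked labelled knockouts, 0.06 in running controls and 0.26 in running labelled knockouts. The SE of these differences was 0.18 to 0.23, against 0.06 for Mef2a, and each of the 4 intervals included 0.

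All 3 MEF2 genes were lower in females with locked wheels. Mef2a measured 154, 169 and 201 CPM in locked control males and 112, 124 and 147 CPM in the females, with no overlap (log2 fold change -0.44, SE 0.06, adjusted p = 4.64e-07; exact permutation p = 0.000583). Mef2d measured 120, 129 and 152 CPM in the males and 91.9, 99.7 and 116 CPM in the females, again with no overlap (-0.35, SE 0.07, adjusted p = 4.28e-05; exact permutation p = 0.000583). Mef2c, which is required for sarcomere integrity, measured 924, 1065 and 1217 CPM in the males and 748, 854 and 957 CPM in the females, and here the groups overlapped (-0.32, SE 0.08, adjusted p = 0.00293; exact permutation p = 0.00117).

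In locked labelled knockouts the 3 MEF2 differences were of like size. Mef2d measured 131, 140 and 148 CPM in males and 93.4, 108 and 110 CPM in females, with no overlap (-0.44, SE 0.06, adjusted p = 1e-06; exact permutation p = 0.000583). Mef2a differed by -0.35 (SE 0.06, adjusted p = 4.47e-05) and Mef2c by -0.32 (SE 0.08, adjusted p = 0.00298), both with overlapping groups. With running wheels no MEF2 gene passed: Mef2a differed by -0.06 in controls and -0.17 in labelled knockouts, Mef2c by -0.01 in both, and Mef2d by -0.10 and -0.07.

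Eya1, the coactivator of Six4, was lower in females of 3 strata. In locked controls it measured 28.4, 30.9 and 32.8 CPM in males and 16.8, 20.8 and 22.96 CPM in females, with no overlap (log2 fold change -0.59, SE 0.11, adjusted p = 2.38e-05; exact permutation p = 0.000583). In locked labelled knockouts it measured 24.8, 30.04 and 33.2 CPM in males and 14.2, 21.4 and 29.99 CPM in females (-0.48, SE 0.10, adjusted p = 0.000401), and in running controls 26.6, 29.7 and 32.5 CPM against 16.2, 21.3 and 27.1 CPM (-0.40, SE 0.10, adjusted p = 0.00785). In running labelled knockouts the difference was -0.22 (SE 0.10, adjusted p = 0.2), with all 7 females below the male median. Six4 was lower in locked control females, by -0.36 (SE 0.12, adjusted p = 0.023; exact permutation p = 0.0105), with 38.5, 47.0 and 57.6 CPM in males and 33.4, 37.0 and 48.2 CPM in females. The Six4 call was lost without the libraries high in liver markers and when locked control female 12 or male 19 or 20 was left out, with adjusted p up to 0.0648.

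In locked controls 4 of the 9 genes (Myf6, Mef2a, Mef2d and Eya1) did not overlap between the sexes, where 6.98% of all genes did not, and in locked labelled knockouts 1 of 9 (Mef2d), where 3.21% did not. Averaged over the 4 strata 8 of 9 genes passed, against 33% of all genes (15.8% higher and 17.1% lower), with log2 fold changes of -0.16 (Six4 and Mef2c) to -0.42 (Eya1) for the 7 lower ones. The Six4 call (adjusted p = 0.0237) was lost without the libraries high in liver markers (-0.16, adjusted p = 0.092). The plot of the sex differences sets the 4 strata side by side.

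**Figure D2:**
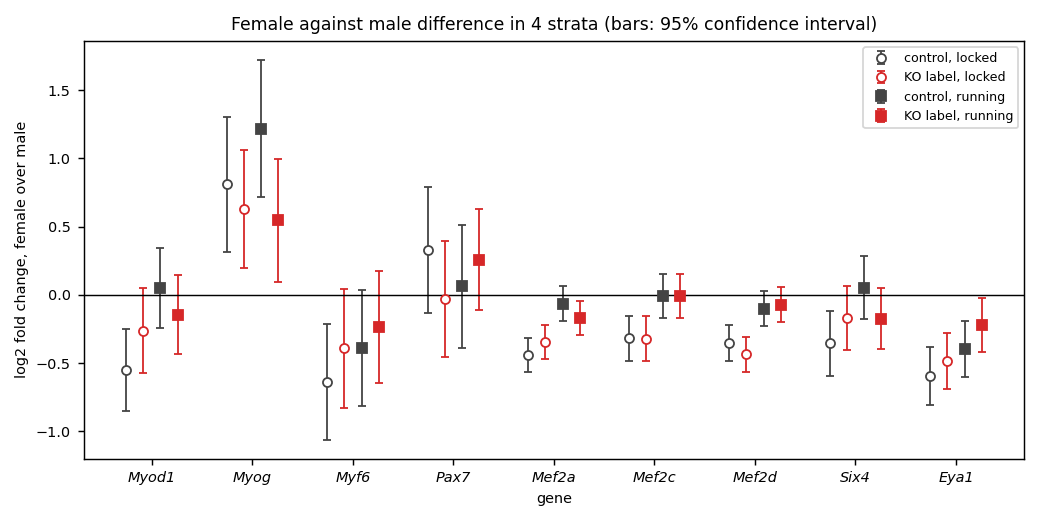
Log2 fold change of females over males for each of the 9 genes in 4 strata (open circles locked, filled squares running, grey control, red labelled knockout), with 95% confidence intervals from the limma fit over 56 mice. Myog lies above 0 in all 4 strata, from 0.55 to 1.22, and the 3 MEF2 genes lie below 0 with locked wheels and nearer to 0 with running wheels.

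Markers of other cell types differed between the sexes in the same locked groups. Among all genes tested, 10.3% were higher and 11.2% lower in females in locked controls. In locked controls 5 of 8 skeletal muscle fibre markers were lower in females (median log2 fold change -0.29), and their summed level ran from 83055 to 100960 CPM in males and from 69784 to 85223 CPM in females. In the same mice 6 of 8 adipocyte markers (median 1.51), 4 of 4 fibro-adipogenic markers (0.87), 4 of 5 tested leukocyte markers (1.06), 4 of 4 erythroid markers (1.48), 6 of 7 slow fibre markers (0.72) and 3 of 14 liver markers (2.37) were higher in females. The summed adipocyte level was 365 to 563 CPM in the males and 517 to 823 CPM in the females, and the fibro-adipogenic level 889 to 1473 and 1651 to 2885 CPM. Of the satellite cell markers, 1 of 5 tested (Vcam1, which endothelial and other cells also express) was higher in females. No marker in the table was at 0 in all 7 mice of a group, and Ucp1, Cd3e and Cd79a were not in the table used here.

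In locked labelled knockouts 5 of 8 fibre markers were likewise lower in females (-0.25) and 6 of 8 adipocyte (2.09), 4 of 4 fibro-adipogenic (0.79) and 6 of 7 slow fibre markers (0.61) higher, while 6 of 14 liver markers were lower (-2.23). Among all genes, 9.08% were higher and 10.2% lower in these locked females. With running wheels fibre markers were called in 1 of 8 in controls (higher) and in 2 of 8 in labelled knockouts (1 higher, 1 lower). Adipocyte markers were called in 1 of 8 and 4 of 8 (higher), and slow fibre markers in 5 of 7 and 4 of 7 (higher). The shares of all genes called were 7.65% in running controls and 5.57% in running labelled knockouts.

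With each mouse's mean adipocyte marker level in the fit as a covariate, chosen after seeing the data, 4 of 9 genes passed in locked controls (Myf6, Mef2a, Mef2d and Eya1), 2 of 9 in locked labelled knockouts (Mef2a and Mef2d) and 5 of 9 in the average over strata. With the fibre markers as a covariate Mef2c was no longer called between the sexes in either locked stratum or in the average. In locked labelled knockouts the same covariate also ended the Myog call and added Myod1 (-0.53, adjusted p = 0.0349) and Myf6 (-0.78, adjusted p = 0.0178), so that 5 of 9 passed, with Mef2a, Mef2d and Eya1 called in both fits. Without the 11 libraries high in liver markers 5 of 9 genes passed in locked controls (Myod1, Mef2a, Mef2c, Mef2d and Eya1). Mef2a, Mef2d and Eya1 kept their call in locked controls under every alternative run. The sexes differ in these marker lists themselves, so sex and tissue makeup cannot be told apart by such a covariate.

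**Figure D3:**
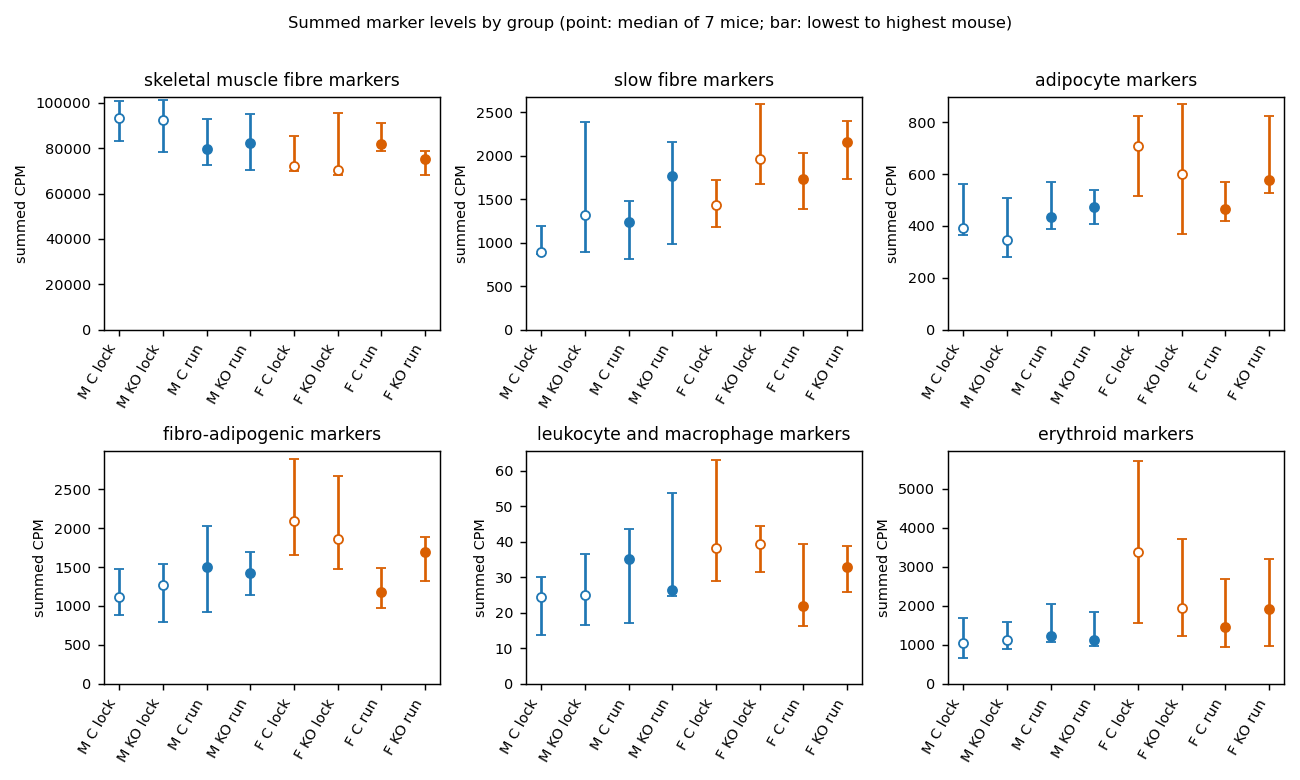
Summed level in CPM of 6 lists of cell type markers in the 8 groups (M male, F female, C control, KO labelled HuR knockout, open circles locked wheel, filled circles running wheel). Points are the median of 7 mice and bars reach from the lowest to the highest mouse; in the locked groups the fibre markers have lower medians, and the adipocyte, fibro-adipogenic, leukocyte and erythroid markers higher medians, in females than in males.

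The partners of these factors were taken from lists of named genes, chosen with earlier results of these data known. They showed the following between locked control males and females. Of 19 tested MEF2 partners and repressors 10 were lower in females and 1 was higher, where 11.2% of all genes were lower and 10.3% higher (median log2 fold change -0.27 beside 0.01 for all genes). Camk2b, of the calcium-dependent kinase family that releases MEF2 from histone deacetylases, was lower by -0.67 (adjusted p = 1.27e-07), from 74.9 to 47.1 CPM. Hdac4 was lower by -0.58 (adjusted p = 0.00186) and Rcan1, an inhibitor of calcineurin, by -0.67 (adjusted p = 0.0247). In locked labelled knockouts 7 were lower and 1 higher (10.2% and 9.08% of all genes), with Camk2b at -0.67, Camk2a at -0.60 and Hdac4 at -0.58.

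Among 8 tested relatives of Six4 and Eya1, 2 were lower in locked control females, where 21.5% of all genes were called and 11.2% lower: Eya4 by -0.89 (adjusted p = 2.73e-05) and Six2 by -0.74 (adjusted p = 0.000838). Six2 was also lower in locked labelled knockout females, by -0.80 (adjusted p = 0.0011). Of 12 tested E proteins and inhibitors of helix-loop-helix factors, Id2 (0.81, adjusted p = 0.000681) and Twist1 (0.70, adjusted p = 0.0273) were higher in locked control females. Both are known inhibitors of myogenic factors.

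On the list of satellite cell genes 14 of 16 were tested. In locked controls Megf10 (1.42, adjusted p = 0.029) and Vcam1 (0.97, adjusted p = 0.000489) were higher in females and Itga7, the laminin receptor subunit also present on fibres, was lower (-0.52, adjusted p = 4.99e-05). Megf10 was low, at mean levels of 1.33 CPM in females and 0.497 CPM in males. At most the 3 largest called differences of a list are named, and those named here went both ways. The median log2 fold change of the 14 tested genes was -0.02. Of all genes 10.3% were higher and 11.2% lower in these females.

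Of 16 tested genes downstream of Myod1 and Myog, 5 were higher and 4 lower in locked control females (median 0.26), beside 10.3% and 11.2% of all genes. Actc1, the cardiac actin that is also made in developing muscle, was higher by 2.82 (adjusted p = 7.97e-12), at 394 against 58.2 CPM, and Mybph, a myosin-binding protein, by 1.97 (adjusted p = 1.11e-05). Musk, the kinase of the neuromuscular synapse, was lower by -1.82 (adjusted p = 8.6e-11), at 7.07 against 24.4 CPM. Actc1 was higher and Musk lower in females of all 4 strata, with log2 fold changes of 1.87 to 2.82 and of -0.96 to -1.82.

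The next comparison was of running against locked wheels in mice of the same sex and genotype. Few of the 9 genes passed. In male controls 1 of 9 (Mef2a, lower) was called, where 3.24% of all genes were (1.75% lower). In female controls 2 of 9 (Mef2c and Mef2d, both higher) were called, where 8.74% of all genes were (4.5% higher), and in female labelled knockouts 1 of 9 (Mef2d, higher), where 3.85% were (2.05% higher). In male labelled knockouts 0 of 9 were called (2 at an unadjusted p under 0.05), where 0.0419% of all genes were. The average over the 4 strata called 1 of 9 (Mef2d), where 5.96% of all genes were called (3.42% higher).

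Mef2d was higher with running wheels in females of both genotypes. In female controls it measured 91.9, 99.7 and 116 CPM with locked and 110, 127 and 143 CPM with running wheels (log2 fold change 0.31, SE 0.07, adjusted p = 0.00163; exact permutation p = 0.00175), with overlap between 110 and 116 CPM. In female labelled knockouts it measured 93.4, 108 and 110 CPM with locked and 114, 129 and 143 CPM with running wheels, with no overlap (0.34, SE 0.06, adjusted p = 0.000702; exact permutation p = 0.000583). Groups did not overlap for 0.796% of all genes in that comparison. In males the difference was 0.06 in controls (95% confidence interval -0.07 to 0.19) and -0.03 in labelled knockouts (-0.15 to 0.10).

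Mef2c was higher with running wheels in female controls, by 0.25 (SE 0.08, adjusted p = 0.0446; exact permutation p = 0.00117), at 748, 854 and 957 CPM with locked and 901, 1016 and 1144 CPM with running wheels. This call was near the threshold, and leaving out any of 17 single mice ended it, with adjusted p from 0.0303 to 0.126, as did leaving out the libraries high in liver markers. Without labelled knockout female 34 the count in female controls was 3 of 9, with Six4 (adjusted p = 0.0357) added. With the fibre markers as a covariate neither Mef2c nor Mef2d was called in female controls. In these mice 2 of 8 fibre markers were higher with running, where 8.74% of all genes were called. Lower with running were 4 of 8 adipocyte, 4 of 4 fibro-adipogenic, 2 of 5 leukocyte, 3 of 4 erythroid and 2 of 14 liver markers. Beyond the covariates the part of these markers in the result was not tested.

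Mef2a was lower with running wheels in male controls, at 154, 169 and 201 CPM with locked and 135, 149 and 158 CPM with running wheels (-0.23, SE 0.06, adjusted p = 0.0271; exact permutation p = 0.00117). All 7 running males lay below the locked median, with overlap between 154 and 158 CPM. The call was lost without the libraries high in liver markers and when locked male 19 or 20 or running male 10 or 28 was left out, with adjusted p up to 0.113. In the same mice 2 of 8 fibre markers were higher and 2 lower with running (median -0.16), where 3.24% of all genes were called. Ckm, the muscle creatine kinase, was among the lower ones (-0.37, limma adjusted p = 0.00543, from 13717 to 10749 CPM). The summed fibre marker level was 83055 to 100960 CPM (median 93302) with locked and 72700 to 92754 CPM (median 79860) with running wheels, and 1 of 5 leukocyte and 1 of 4 endothelial markers were higher. With the fibre markers as a covariate Mef2a differed by -0.22 (adjusted p = 0.0299). In female controls Mef2a was 0.15 higher (adjusted p = 0.136).

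The difference between the sexes in the wheel response was itself tested. In controls it was called for 1 of 9 genes, Mef2a, at 0.38 log2 units (SE 0.09, adjusted p = 0.00423; females more positive), where 8.74% of all genes were called (4.33% in that direction). In labelled knockouts it was called for Mef2d alone, at 0.36 (SE 0.09, adjusted p = 0.0263), where 1.35% of all genes were called (0.684% in that direction). Without labelled knockout female 34, 3 of 9 passed in controls, with Myod1 and Six4 added. Both calls were lost without the libraries high in liver markers and with the fibre markers as a covariate, which added Myod1 in controls. The Mef2d call was lost without locked labelled knockout female 14 or running labelled knockout male 21, with adjusted p up to 0.0512. In controls 8 of the 9 differences were positive, with a median of 0.31 beside -0.02 for all genes, and Myod1 (0.60, adjusted p = 0.0602), Mef2d (0.25, 0.0739) and Mef2c (0.31, 0.0819) lay just outside the threshold.

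Of the MEF2 partners 5 of 19 were higher with running wheels in female controls, where 4.5% of all genes were, Hdac4 by 0.52 (adjusted p = 0.0146), Rcan2 by 0.41 (adjusted p = 0.0368) and Camk2d by 0.39 (adjusted p = 0.0108) among them. In male controls 3 were higher and 1 lower, where 3.24% of all genes were called, with Vgll2, a muscle cofactor of TEAD proteins, at 0.64 (adjusted p = 0.00429), Rcan2 at 0.59 (adjusted p = 0.00227) and Hdac7 at 0.47 (adjusted p = 0.0129). Six4 differed by 0.26 to 0.28 in 3 strata and by -0.15 in male controls, with no call, and its average was 0.17 (adjusted p = 0.0688).

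On the satellite cell list Dag1, the dystroglycan gene that fibres also express, was higher with running in females (0.22 in controls and 0.41 in labelled knockouts, adjusted p = 0.0319 and 5.83e-05), and Cdh15 (M-cadherin) was higher in female controls, by 0.53 (adjusted p = 0.0366), at 7.74 against 5.56 CPM. Itgb1 of the same list was lower in female controls, by -0.22 (limma adjusted p = 0.0133), at 175 against 204 CPM. Of all genes 8.74% were called in female controls and 3.85% in female labelled knockouts. Pax7 differed by 0.53 in female labelled knockouts (adjusted p = 0.12), 0.24 in male labelled knockouts, 0.05 in male controls and -0.22 in female controls. Among 12 tested E proteins and inhibitors of helix-loop-helix factors, Id2 and Id3 were lower with running in female controls, where 8.74% of all genes were called. They differed by -0.63 (limma adjusted p = 0.0225) and -0.68 (limma adjusted p = 0.0171).

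The last comparison was of labelled knockout against control mice of the same sex and wheel. None of the 9 genes passed the limma test in any of the 4 strata, where 1.15% of all genes did in locked males, 0.384% in locked females, 2.63% in running males and 0% in running females. At an unadjusted p under 0.05 there were 2 of 9 in locked males, 0 in locked females, 2 in running males and 1 in running females. DESeq2 called 1 of 9 in locked males, Myod1. Without labelled knockout female 34, limma called 2 of 9 in locked males (Myod1 and Myf6) and 1 of 9 in running males (Six4).

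Myod1 measured 20.9, 27.6 and 28.9 CPM in locked control males and 13.9, 19.3 and 24.5 CPM in locked labelled knockout males. All 7 labelled knockouts lay below the control median, and the log2 fold change was -0.50 (SE 0.15, unadjusted p = 0.00123 and adjusted p = 0.072 by limma). The Myod1 adjusted p was 0.0353 without labelled knockout female 34, a mouse of another group that enters the shared estimate of the spread, and 0.0274 without locked labelled knockout male 8. In the other strata the difference was -0.21 in locked females, 0.02 in running males and -0.18 in running females. The average over the 4 strata was -0.22 (SE 0.07, adjusted p = 0.0428), the only call among the 9 genes, where 11.8% of all genes were called (7.41% lower). It was lost under upper-quartile scaling, by the edgeR quasi-likelihood test, by DESeq2, without the libraries high in liver markers, with the mouse number as a replicate block, and when any of 29 of the 56 mice was left out.

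Myog, the other message known as a HuR target, differed by 0.31 in locked males, 0.13 in locked females, 0.67 in running males and -0.0012 in running females. In running males it measured 2.33, 5.03 and 9.52 CPM in controls and 5.41, 7.10 and 16.1 CPM in labelled knockouts, with all 7 labelled knockouts above the control median (SE 0.26, unadjusted p = 0.0122, adjusted p = 0.163 by limma). The average was 0.28 (95% confidence interval 0.04 to 0.51, adjusted p = 0.12). Of the alternatives only the mouse number as a replicate block called it (limma adjusted p = 0.0167). Myf6 differed by -0.53 in locked males (adjusted p = 0.189), with 38.1, 52.4 and 61.5 CPM in controls and 26.8, 32.6 and 45.5 CPM in labelled knockouts.

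Pax7 measured 2.44, 3.17 and 5.68 CPM in running control females and 3.29, 5.14 and 6.47 CPM in running labelled knockout females. All 7 labelled knockouts lay above the control median (0.59, SE 0.21, unadjusted p = 0.0073, adjusted p = 0.222 by limma). Its average was 0.26 (adjusted p = 0.113). The MEF2 genes and Eya1 had average differences of 0.0037 (Mef2a) to 0.06 (Mef2c), with no call.

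Several relatives did pass in the same comparison. Dach2, a corepressor that acts with EYA proteins and represses Myog in fibres, was lower in labelled knockouts, by -1.38 in locked males (adjusted p = 0.0353), from 9.44 to 4.45 CPM, and by -1.04 in running males (adjusted p = 0.04), from 11.4 to 5.86 CPM. Its average was -1.19 (adjusted p = 5.42e-06). Six2 was lower in the average (-0.39, adjusted p = 0.00156).

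Of the 16 genes downstream of Myod1 and Myog, 5 were higher and 3 lower in the average, where 11.8% of all genes were called and 7.41% lower. The acetylcholine receptor subunit genes Chrna1 (0.63, adjusted p = 1.43e-05) and Chrne (0.62, adjusted p = 0.000238) were higher in labelled knockouts, and Actc1 was lower (-0.64, adjusted p = 0.000581). In running males Chrna1 rose from 18.4 to 34.8 CPM (0.91, adjusted p = 0.00682) and Chrnb1 from 12.4 to 16.6 CPM (0.43, adjusted p = 0.032). All 7 slow fibre markers were also higher in labelled knockouts in the average (median 0.55), and their part in these results was not tested.

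**Figure D4:**
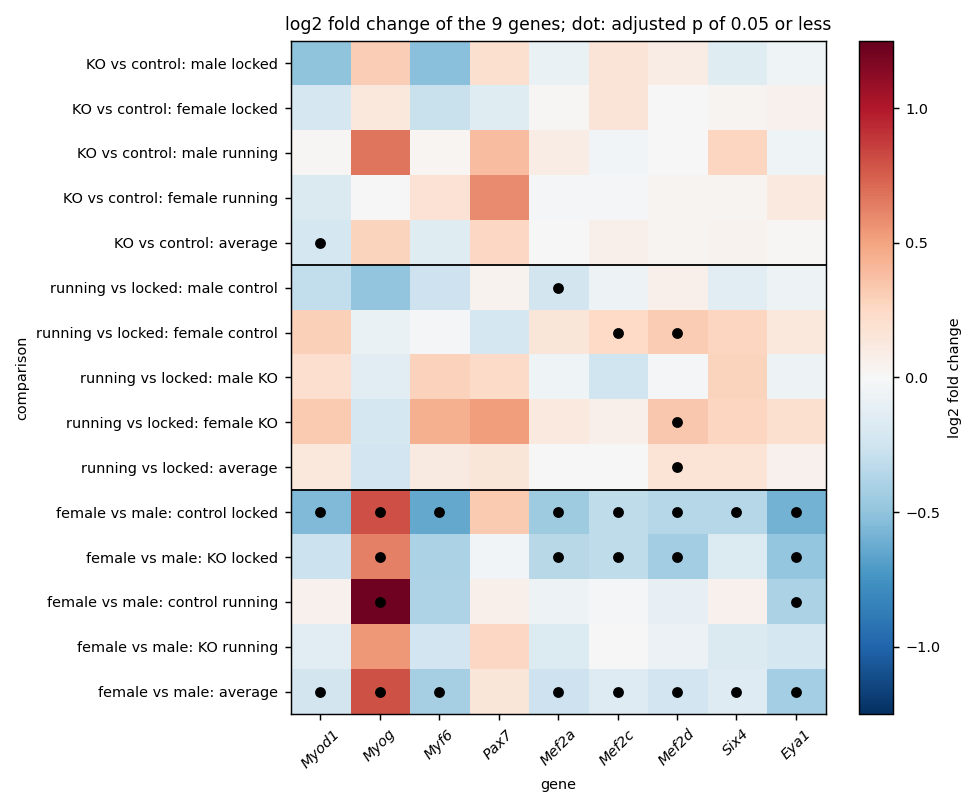
Log2 fold change of each of the 9 genes in 12 comparisons within strata and 3 averages over strata (colour, red higher and blue lower in the group named first; KO is the labelled HuR knockout). Dots mark an adjusted p of 0.05 or less in the limma fit; 8 of 9 genes carry a dot for sex in locked controls and 1 of 9 (Myod1) for genotype, in the average only.

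Tests of whether the wheel response differed by genotype called 0 of 9 genes in males (2 at an unadjusted p under 0.05, 0.0349% of all genes called) and 0 of 9 in females (1 unadjusted, 0% of all genes). Tests of whether the genotype difference differed by sex called 0 of 9 with locked wheels (0 unadjusted, 0% of all genes) and 0 of 9 with running wheels (0 unadjusted, 0.014% of all genes). The largest estimate in males was for Myf6 at 0.55 (adjusted p = 0.577), and in females for Pax7 at 0.74 (95% confidence interval 0.14 to 1.34, adjusted p = 0.402).

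The order of the 8 group means differed from gene to gene. For Myog the 4 female groups came first, from 13.8 to 11.6 CPM, then male labelled knockouts with locked (9.28) and running wheels (8.19) and male controls with locked (7.22) and running wheels (5.31). For Pax7 the labelled knockouts with running wheels led, females at 5.19 and males at 4.45 CPM, and male controls with locked wheels came last at 3.17 CPM. No 2 neighbours in either order differed by more than the larger of their SDs. Neighbours did differ by more than that for Myod1 between locked control males (26.2 CPM) and the next group, for Mef2c between locked labelled knockout males (1188 CPM) and the next, for Mef2a below running labelled knockout males (157 CPM) and for Mef2d below running control females (128 CPM).

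The 9 genes also varied together among mice of the same group. With the mean of each group taken out, 36 pairs were correlated over 56 mice, and 6 pairs passed a permutation test within groups after Benjamini-Hochberg adjustment over the 36. Myod1 and Myf6 varied together (Pearson r = 0.62, adjusted permutation p = 0.00108, and Spearman rho = 0.457, adjusted p = 0.00996). Without the 2 mice farthest from the Myod1 median r was 0.476. Here and below the 2 farthest mice are those farthest for the gene or marker list named first. Mice extreme only for the other gene stayed in. Myod1 and Mef2c went in opposite directions (r = -0.60, adjusted permutation p = 0.00108; rho = -0.632, adjusted p = 0.00072; r = -0.559 without the 2 farthest mice).

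Mef2a was correlated with Six4 (r = 0.519, rho = 0.491), Mef2d (r = 0.456, rho = 0.398) and Mef2c (r = 0.455, rho = 0.43), with adjusted permutation p of 0.00564, 0.0081 and 0.0189 for r and 0.00306, 0.0297 and 0.0267 for rho. Without the 2 farthest mice these r were 0.493, 0.393 and 0.317. Mef2d and Six4 were correlated at r = 0.37 (adjusted permutation p = 0.0189), while rho was 0.336 (adjusted p = 0.0751). Myf6 and Six4 had r = 0.617 but did not pass (adjusted permutation p = 0.134), and r was 0.15 without the 2 farthest mice, so the value rests on those mice. Myog and Pax7 entered no pair that passed.

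**Figure D5:**
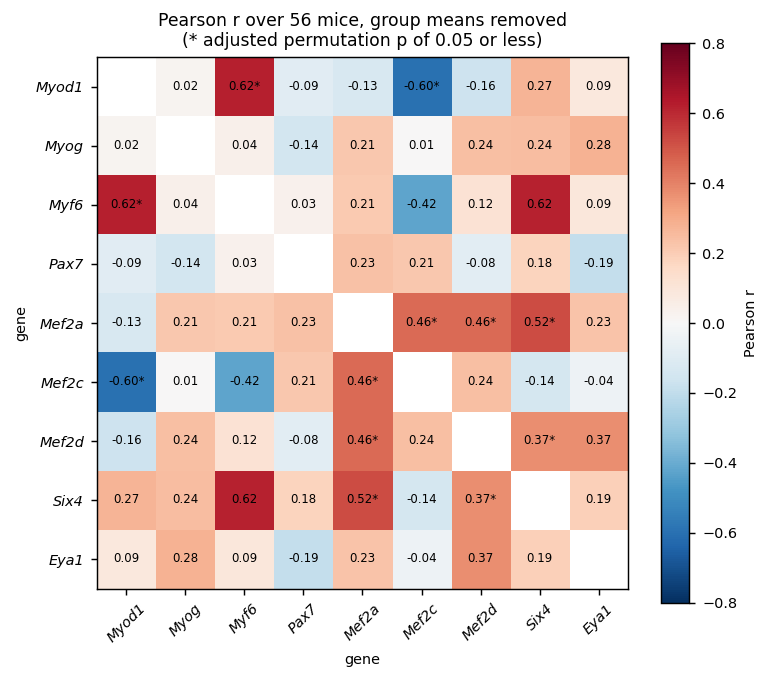
Pearson r between each pair of the 9 genes over 56 mice after the mean of each group was taken out of the log2 values (red positive, blue negative). Asterisks mark an adjusted permutation p of 0.05 or less over 36 pairs; Myod1 is paired positively with Myf6 (0.62) and negatively with Mef2c (-0.60), and Mef2a positively with Six4, Mef2c and Mef2d.

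The mean level of the 8 fibre markers varied with some of the same genes within groups. Over 45 relations tested, it was correlated with Mef2c (r = 0.636, adjusted permutation p = 0.0009; rho = 0.583, adjusted p = 0.00135; r = 0.659 without the 2 farthest mice) and inversely with Myf6 (r = -0.505, adjusted permutation p = 0.0211; rho = -0.381, adjusted p = 0.0753; r = -0.30) and Myod1 (r = -0.463, adjusted permutation p = 0.0361; rho = -0.385, adjusted p = 0.0753; r = -0.343). The slow fibre markers had r = 0.411 with Myog (adjusted permutation p = 0.0656; rho = 0.397, adjusted p = 0.0753; r = 0.421). The difference between the mean level of 1345 genes under 1.5 kb of exon and that of 5919 genes over 5 kb, a measure of length bias between libraries, passed with none of the 9 genes, with r from -0.209 to 0.271.

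For each gene the pair of genes most like it over the 56 mice, with group means taken out, was found among 12830 genes. They were Gstp1 (r = 0.71) and Gng5 (0.697) for Myod1, Pfdn2 and Otud1 (0.579 each) for Myog, and Ndufa1 (0.861) and Snhg6 (0.852) for Myf6. For Pax7 they were Gm37569 (0.519) and Rnf125 (0.505). For the MEF2 genes they were Trp63 (0.636) and Celf1 (0.59) with Mef2a, Prkar2a (0.791) and Tesk1 (0.779) with Mef2c, and G3bp1 (0.636) and Rere (0.615) with Mef2d. Six4 was most like Ube2g1 (0.80) and 9530068E07Rik (0.79), and Eya1 most like Dirc2 (0.605) and Traf2 (0.57). These are the highest of many values over the same libraries and are given as a description.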

How the data were processed

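The 9 genes and the lists of related genes and markers were chosen with earlier results of these data known. The authors deposited 1 table of raw read counts per gene for 56 mice (labels and table columns matched by name, no column left unused). The labels name GRCm38 and mm10, R 4.0.3 and edgeR 3.38.4; the aligner, the counter and the strand setting are not given in the sources used here, and sources disagree on the library kit (3′ in the labels, total RNA in the study's methods). The smallest total of a listed gene was 168 counts, so genes with fewer reads are not analysed here.

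Counts were scaled by TMM (edgeR 4.0.16), filtered with filterByExpr, and fitted with voom and limma 3.58.1 in R 4.3.3 as 8 group means over all 56 mice. P-values were adjusted by Benjamini-Hochberg over 14321 genes within each of 21 comparisons and called at 0.05 or less. SEs and 95% confidence intervals come from that fit. CPM values are TMM-scaled, and correlations and exact permutation tests used log2(CPM + 0.5). Correlations used 100000 permutations of mice within groups. Named genes are the 9 genes, Elavl1, at most 3 called genes of each list and comparison, and the 2 genes most like each of the 9, searched where the mean count reached 10. The fit was tested on simulated data.

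Alternatives were DESeq2 1.42.0, the edgeR quasi-likelihood test, other scalings and filters, sample quality weights, a replicate block, each mouse left out, the libraries high in liver markers left out, only the groups compared and, chosen after seeing the data, fibre marker, adipocyte marker and gene length covariates. Mouse numbers are shared only across sexes, for 12 pairs of mice in compared groups, whose deviations correlated at -0.205 to 0.218, so they were not used as pairs. No batch is labelled. Mice of a group differed by 3.55 to 49.8 times the counting noise (chi-square per degree of freedom), so none was a copy of another. The p-values measure the spread between mice. There were 7 mice a group and 6639782 to 21633091 counts a library, and Pax7 and Myog had the fewest counts. The SE of the sex difference averaged over strata was 0.12 for Myog and 0.11 for both Pax7 and Myf6.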

Additional observations from a re-analysis of the deposited data

Results flagged for a closer look

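Among 72 checks of the highest and lowest mouse in each group of 7, 6 stood apart by Dixon's criterion (critical value 0.568), and chance alone flags about 1 group in 20. Locked labelled knockout female 34 was lowest for Myf6 at 6.0236 CPM, with the next mouse at 27.467 CPM, and for Six4 at 18.7475 CPM, with the next at 38.1387 CPM. The same mouse had the lowest Myod1 of its group, at 8.12 CPM, and 15963607 counts in all. Running labelled knockout male 1 was highest for Myog at 16.0808 CPM (next 8.5062). For Pax7, running control female 1 was highest at 5.679 CPM (next 3.3139) and running labelled knockout female 7 lowest at 3.2881 CPM (next 4.8833). For Mef2a, running control female 25 was highest at 145.4837 CPM (next 141.5879), in a group whose SD was 2.03 CPM.

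The wheel response differed between the sexes, by the interaction test, for Mef2a in controls (0.3778 log2 units, females minus males) and for Mef2d in labelled knockouts (0.364 log2 units). For Mef2a the response was -0.23 in control males and 0.15 in control females. For Mef2d it was -0.03 in labelled knockout males and 0.34 in labelled knockout females.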

How the results depend on the processing

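No called result turned its direction under any alternative. Of 2430 single-gene results under alternatives other than leaving out 1 mouse, 2346 stayed on their side of the threshold with their direction kept or never called, 56 lost and 28 gained a call, and 129 uncalled estimates differed in sign. Counts below are genes called of 9. The cause of each change was not tested.

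Between the sexes in locked controls (8) there were 5 without the libraries high in liver markers and 4 with the adipocyte covariate; in locked labelled knockouts (5), 2 with the adipocyte covariate; in the average (8), 5 with the adipocyte covariate. Single calls were also lost for Mef2c in locked labelled knockouts with only the groups compared (adjusted p = 0.0591) and, in the average, for Myod1 with sample quality weights, Six4 without the liver libraries (0.092) and Mef2c with the fibre covariate. For running in male controls (1), 2 passed with sample quality weights and 0 without the liver libraries. In female controls (2), 1 passed with no filter, without the liver libraries, with the adipocyte and with the length covariate, and 0 with the fibre covariate. In the running average (1), 2 passed with sample quality weights and with the fibre covariate.

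For genotype in locked males (0), 2 passed with sample quality weights and 1 with DESeq2; in running males (0), 1 with sample quality weights and 1 with only the groups compared; in the average (1), 0 with upper-quartile scaling, edgeR, DESeq2 and without the liver libraries, and 2 with sample quality weights. For the wheel by sex interaction in controls (1), 3 passed with at least 10 counts in every mouse, 4 with sample quality weights, 4 with only the groups compared, 3 with DESeq2 and 0 without the liver libraries. In labelled knockouts (1), 2 passed with sample quality weights and 0 without the liver libraries, with each of the 3 covariates and with only the groups compared.

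With the mouse number as a replicate block, which joins mice that share only a number, 7 genes passed between the sexes in locked controls, 7 in the average (Six4 lost, adjusted p = 0.197), 0 in locked and 1 in running labelled knockouts. There were 0 for running in male controls, female controls, female labelled knockouts and the average, 1 for genotype in running males, and 2 and 0 for the wheel by sex interactions in controls and labelled knockouts. In the genotype average the Myod1 call was lost and Myog was called, higher in labelled knockouts (limma adjusted p = 0.0167).

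Leaving out 1 mouse at a time gave 0 to 2 for genotype in locked males, 0 to 1 in running males and 0 to 1 in the average; 0 to 1, 1 to 3, 1 to 2 and 1 to 2 for running in male controls, female controls, female labelled knockouts and the average; 6 to 8 and 4 to 5 between the sexes in locked controls and labelled knockouts; and 1 to 3 and 0 to 2 for the wheel by sex interactions. The lowest count in locked controls came without control male 19, and the highest for running in female labelled knockouts without locked labelled knockout female 13, where Pax7 was added (adjusted p = 0.0427). The other 10 results kept their count. Pax7, with at least 18 counts a mouse, was still tested with 10 counts required in every mouse. Averages over all 8 groups have no fit with only the groups compared. Depth limits Pax7 most, with 18 to 94 counts a mouse.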

Other observations

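Of the genes most like each of the 9 over the 56 mice, those most like Myf6 had short exon lengths (Ndufa1 0.419 kb and Snhg6 1.146 kb, Myf6 itself 1.263 kb) and those most like Mef2a had long ones (Trp63 8.391 kb and Celf1 8.446 kb, Mef2a itself 14.681 kb). The measure of length bias across libraries had r = 0.271 with Myf6 (adjusted permutation p = 0.325) and r = -0.182 with Mef2a (adjusted permutation p = 0.519). Its group medians ran from -0.862 in running labelled knockout females to -0.739 in locked control females. With this measure as a covariate 8 of 9 genes passed between the sexes in locked controls and 4 of 9 in locked labelled knockouts.

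Mean Musk level, a gene of the neuromuscular synapse, was 24.4, 22.99, 17.4 and 18.2 CPM in males (locked control, locked labelled knockout, running control, running labelled knockout) and 7.07, 9.05, 8.73 and 8.89 CPM in females. The sex difference in its wheel response was called in controls (0.85, limma adjusted p = 0.0295).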
